A study of Mus musculus with 24 samples.

Results

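Transcripts of 6 genes for cell-surface proteins, Slamf1 (CD150), Cd48, Ly6a (Sca1), Cd34, Procr (the endothelial protein C receptor, EPCR) and Cd9, were followed through the early blood system of young and aged mice. The 6 were taken by name from the 24421 gene lines of the count table because their proteins are used to sort or to define mouse blood stem cells, and all 6 passed the filter that left 14205 genes for testing. The libraries are bulk RNA-seq of sorted marrow cells from male C57BL/6 mice of 107 weeks (aged, 4 mice) and 12 weeks (young, 4 mice). No other genotype or treatment is given, and marrow in every group was first enriched for CD117, the Kit receptor.

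All sorted cells were LSK cells: they lacked the lineage markers of mature blood cells and carried Sca1 and Kit. Within LSK cells, long-term hematopoietic stem cells (LT-HSC) were CD150 positive and CD48 negative. Short-term hematopoietic stem cells (ST-HSC) were negative for both proteins, and multipotent progenitors (MPP) were CD150 negative and CD48 positive. The 6 groups, aged and young cells of each population, had 4 libraries each and 24 libraries in all. Labels count 4 mice per age but do not say which library came from which mouse. P-values measure the spread between libraries, taken as separate mice within a group. Since the libraries outnumber the mice, libraries of different populations must share mice. The fit reported does not model this sharing, which touches the population contrasts and the differences between age effects. Slamf1 and Cd48 encode the proteins that separate the populations, so their levels between populations are a check of the sort, given with no test. The Sca1 gate was the same in all 6 groups, and no gate was placed on CD34, EPCR or CD9.

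As background, blood stem cells sit in the marrow and give rise to every blood lineage through progenitors that lose self-renewal step by step. CD150 and CD48 belong to the SLAM family, receptors of immune cells that mostly bind themselves or one another. CD150 binds itself and signals through small adaptor proteins, while CD48 has no tail of its own, is held by a lipid anchor and binds CD244. Sca1 is another lipid-anchored protein, of the Ly6 family. CD34 is a sialomucin that in the mouse is low on the most primitive adult stem cells and higher on progenitors. EPCR presents protein C for activation by thrombomodulin and thrombin on vessel walls and marks mouse stem cells with long-term repopulating activity. CD9 is a tetraspanin, a protein with several membrane passes that gathers partner proteins in the membrane.

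Slamf1 and Cd48 are neighbours in the SLAM cluster of chromosome 1. In GENCODE M21 on GRCm38, Slamf1 spans chr1:171767127-171801184 and Cd48 spans chr1:171682009-171705258, both on the plus strand, with 61868 bases between the end of Cd48 and the start of Slamf1. Cd34 lies on the same chromosome at chr1:194938819-194961279, plus strand. Ly6a is at chr15:74994877-74998031 on the minus strand, Procr at chr2:155751117-155755471 on the plus strand and Cd9 at chr6:125460266-125494791 on the minus strand. All 6 are protein coding. The exons of Cd34 overlap those of the antisense gene Gm16897, which held 12079 counts summed over the 24 libraries, and those of Cd9 overlap Gm26728 on the opposite strand. The library chemistry does not mark strand, so reads from such overlapping exons cannot be told apart.

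RefSeq (GRCm38.p6) gave a promoter for 5 of the 6 genes. The 3 shown are those of Slamf1, Cd34 and Procr, which passed the age test in LT-HSC. The Cd48 window lies within the RefSeq span of that gene and is not shown. Each runs 5' to 3' on the gene's own strand and stops before the first GENCODE exon. Capitals mark matches, on either strand, to motifs of GATA factors (letters GATAA), of ETS factors (letters AGGAAG) and of AP-1 (letters TGANTCA). The RUNX motif (letters TGTGGT) and the E-box (letters CAGCTG) were searched too. The coordinates are chr1:171766882-171767126 for Slamf1, chr1:194938571-194938818 for Cd34 and chr2:155750967-155751116 for Procr, all plus strand.
Slamf1: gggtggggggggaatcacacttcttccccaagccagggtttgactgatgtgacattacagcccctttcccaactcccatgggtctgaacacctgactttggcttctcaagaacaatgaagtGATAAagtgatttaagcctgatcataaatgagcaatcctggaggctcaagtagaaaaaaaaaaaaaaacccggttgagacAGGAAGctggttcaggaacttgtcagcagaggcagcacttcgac
Cd34: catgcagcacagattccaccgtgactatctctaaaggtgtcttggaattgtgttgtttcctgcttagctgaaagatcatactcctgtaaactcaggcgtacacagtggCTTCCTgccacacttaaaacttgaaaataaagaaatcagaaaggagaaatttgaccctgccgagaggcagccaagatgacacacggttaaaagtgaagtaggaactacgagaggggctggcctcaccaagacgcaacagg
Procr: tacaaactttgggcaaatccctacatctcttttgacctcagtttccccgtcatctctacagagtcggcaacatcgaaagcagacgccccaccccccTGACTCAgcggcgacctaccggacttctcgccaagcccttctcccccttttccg
Positions count back from the start that RefSeq's promoter table uses, over 250 bases. For Cd48 and Procr that start lies inside the RefSeq gene span, which begins at 171681245 for Cd48 and 155751125 for Procr. Slamf1 held a GATA match at -129 to -125 and an ETS match at -49 to -44. Cd48 held a RUNX match at -76 to -71 and neither a GATA nor an ETS match. Cd34 held an ETS match on its other strand at -142 to -137. Procr held an AP-1 match at -154 to -148 and, beyond the printed stretch and past the start of the gene span, an E-box at -34 to -29. Cd9 held an ETS match at -203 to -198 and an E-box at -25 to -20. These are short motifs found in many promoters: of 27025 promoters of the same length, 23.0% held GATAA, 29.2% AGGAAG, 14.2% TGTGGT, 12.8% CAGCTG and 6.87% TGANTCA. The matches are a description of the letters only.

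Levels are CPM, read counts divided by the depth of the library and scaled with TMM factors, from libraries of 7307151 to 12946550 counts (median 8652940) in which 14416 to 16103 genes had a count. Marker RNA of other cell types varied between libraries, and whether it came from such cells was not tested. The 6 granulocyte markers analysed summed to 1474 CPM in aged ST-HSC library 2, to 121 and 280 CPM in aged ST-HSC libraries 1 and 3, to 254 CPM in young ST-HSC library 4, to 288 CPM in aged MPP library 4, and to at most 54.8 CPM elsewhere. The 6 MPP markers, among them the myeloid progenitor gene Mpo, summed to 858 CPM in young LT-HSC library 1. In the other young LT-HSC libraries they summed to 168 to 186 CPM. Aged ST-HSC libraries 1 to 4 held 3143, 1629, 2603 and 878 CPM of them, against 825 to 946 CPM in young ST-HSC. Their part in the ST-HSC age comparison was not tested. The plasma cell gene Jchain, which encodes the joining chain of secreted antibodies, was high in every aged MPP library, at 2324, 3289, 1794 and 9061 CPM, and in young MPP library 4, at 284 CPM. In aged ST-HSC library 4 it stood at 328 CPM.

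The RNA of the gating genes followed the labels of the sort. Slamf1 was an LT-HSC transcript at both ages. Its libraries 1 to 4 held 64.8, 88.4, 72.3 and 62.7 CPM in aged LT-HSC and 31.8, 25.4, 23.0 and 24.6 CPM in young LT-HSC. Aged ST-HSC held 0.0794, 0.648, 0.267 and 1.93 CPM and young ST-HSC 0.625, 1.53, 0.379 and 0.622 CPM. Every LT-HSC library lay above every library of the other populations. MPP were as low as ST-HSC, with 0.197, 0.889, 0.187 and 0.981 CPM in aged MPP and 0, 1.45, 0.487 and 0.241 CPM in young MPP. The mean of aged ST-HSC was 1.02% and that of aged MPP 0.782% of the aged LT-HSC mean. In young mice these shares were 3.01% for ST-HSC and 2.08% for MPP.

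Cd48 ran the other way and was graded rather than absent outside its gate. It was highest in MPP, at 87.3, 83.0, 93.0 and 97.7 CPM in aged MPP and 65.7, 67.3, 69.9 and 62.9 CPM in young MPP. ST-HSC, sorted as CD48 negative, held 14.5, 15.0, 12.3 and 16.0 CPM in aged mice and 11.4, 7.64, 11.8 and 15.2 CPM in young mice. The ST-HSC mean was thus 16.0% of the MPP mean in aged mice and 17.3% in young mice, and no ST-HSC library overlapped with MPP or LT-HSC. LT-HSC were near the floor of detection, with 0, 0.203, 0.51 and 0 CPM in aged and 0.356, 0.255, 3.54 and 0.837 CPM in young libraries. The aged LT-HSC mean was 0.198% of that in aged MPP, and the young LT-HSC mean 1.88% of that in young MPP. Per kilobase of exon, Slamf1 exceeded Cd48 in 8 of 8 LT-HSC libraries and in 0 of the 16 ST-HSC and MPP libraries.

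**Figure D1:**
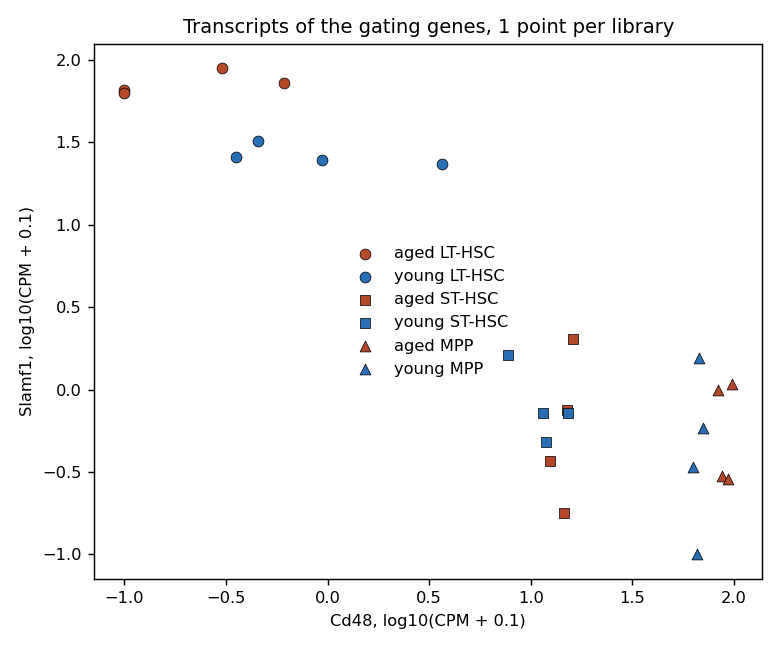
Slamf1 against Cd48 in each library, both as log10(CPM + 0.1), with 1 point per library, colour for age and shape for population. LT-HSC libraries sit at the upper left, MPP libraries at the lower right and ST-HSC libraries between them on the Cd48 axis, with Slamf1 as low as in MPP.

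Kit, the other positive gate gene, was abundant in all groups, with means of 1694 CPM in aged LT-HSC and 1452 CPM in young LT-HSC, 1562 CPM in aged ST-HSC and 1441 CPM in young ST-HSC, and 1041 CPM in aged MPP and 1104 CPM in young MPP. By the edgeR test described below, Kit was higher in aged than in young LT-HSC, without overlap (log2 0.22, adjusted p = 0.036). Its age effect did not pass in ST-HSC (0.12, adjusted p = 0.41) or in MPP (-0.09, adjusted p = 0.53). Kit in LT-HSC exceeded that in MPP, by 0.70 in aged (adjusted p = 9.3e-09) and 0.39 in young cells (adjusted p = 0.00014). ST-HSC exceeded MPP too, and LT-HSC minus ST-HSC did not pass at either age. The 8 LT-HSC marker genes summed to 4007 to 4261 CPM in aged LT-HSC and 3137 to 3936 CPM in young LT-HSC. The same sum was 1991 to 2503 CPM in aged ST-HSC, 2432 to 2742 CPM in young ST-HSC, 554 to 649 CPM in aged MPP and 1032 to 1352 CPM in young MPP.

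**Figure D2:**
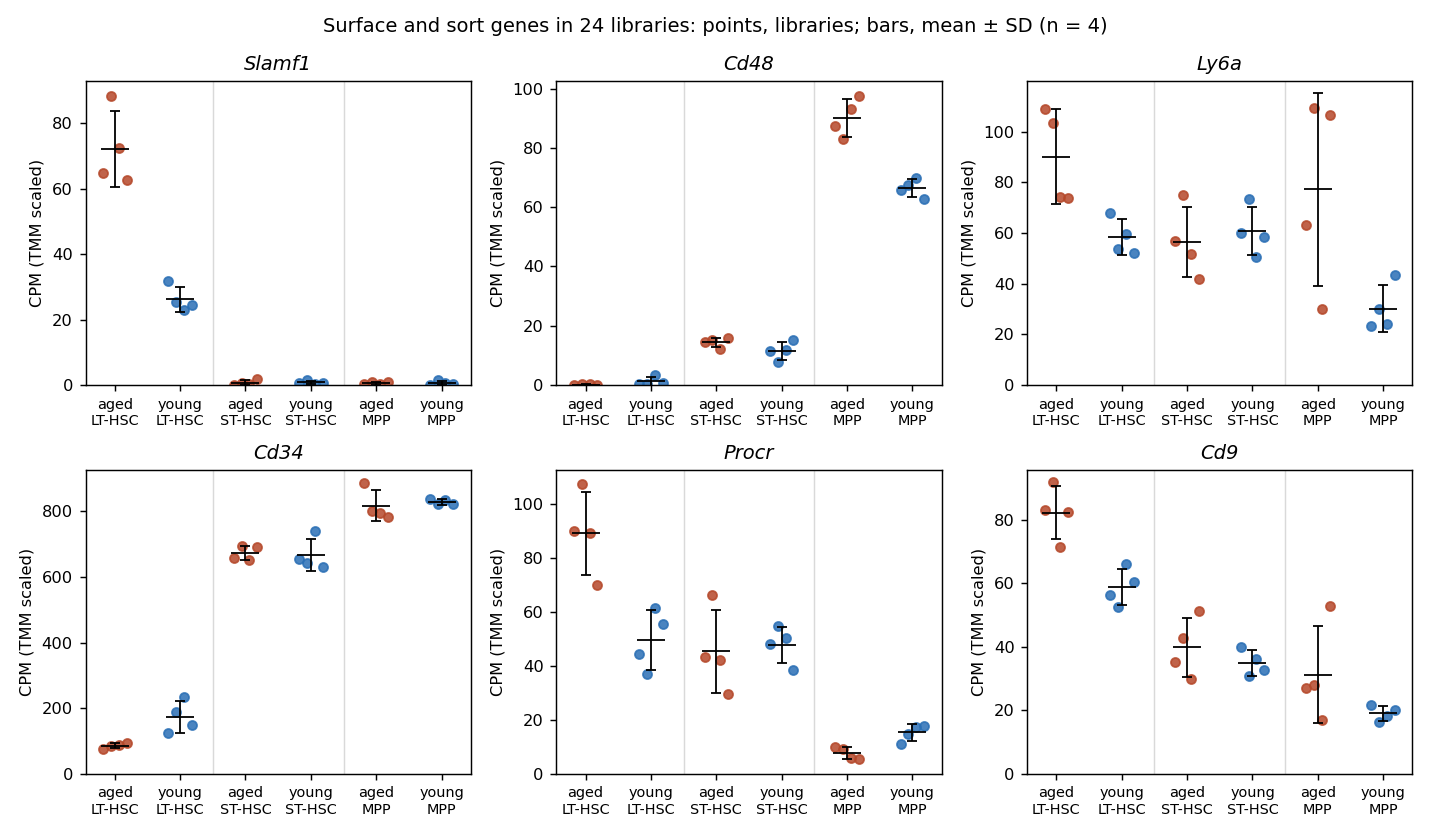
CPM of the 6 genes in aged and young LT-HSC, ST-HSC and MPP, with 1 point per library and bars for mean ± SD of 4 libraries, each panel on its own linear scale from 0. Slamf1 and Procr separate aged from young LT-HSC, Cd34 is lowest in aged LT-HSC, and the 4 aged MPP libraries scatter widely for Ly6a and Cd9.

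In aged LT-HSC, Slamf1 and Procr rose and Cd34 and Cd48 fell, while Ly6a and Cd9 did not pass the test. That is 4 of 6 genes, 2 in each direction, where 18.9% of all tested genes passed in this comparison. Aged and young values did not overlap for 5 of the 6, all but Cd48, against 22.1% of tested genes. Tests here and below are edgeR quasi-likelihood tests with Benjamini-Hochberg adjustment over the 14205 genes, two-sided, with log2 changes ± SE as aged minus young and 4 libraries per group.

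Slamf1 averaged 72.1 ± 11.7 CPM in aged LT-HSC and 26.2 ± 3.85 CPM in young LT-HSC (SD, n = 4 each). The lowest aged library, at 62.7 CPM, was above the highest young library, at 31.8 CPM. The log2 change was 1.46 ± 0.39, a 2.75-fold higher level in aged LT-HSC (adjusted p = 0.011). By DESeq2 the change was 1.47 and did not pass (adjusted p = 0.087). All sorted LT-HSC were CD150 positive at both ages, so the comparison is of RNA within one gate. In bulk RNA, fewer cells carrying a transcript and less of it per cell cannot be told apart, for Slamf1 and for every gene below.

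Cd48, already near the floor in LT-HSC, fell further with age. Its 4 aged LT-HSC libraries held 0, 2, 4 and 0 counts, 6 in all, against 3, 2, 34 and 11 counts, 50 in all, in the young LT-HSC libraries. The ages overlapped, and 1 young library, number 3, held most of the young counts. The log2 change was -2.77 ± 0.80 (adjusted p = 0.017). Without young LT-HSC library 3 it was -1.54 (adjusted p = 0.11), and without aged LT-HSC library 1 it was -2.41 (adjusted p = 0.051). That young library also had the highest Cd34 of its group, at 235 CPM. Its Slamf1, at 23.0 CPM, was the lowest, against 24.6 to 31.8 CPM in the other young LT-HSC libraries. Its MPP markers summed to 186 CPM, within the 168 to 858 CPM of the group. Whether its Cd48 counts came from cells other than LT-HSC was not tested.

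Cd34 gave the age effect with the smallest p of the 6 genes. Its aged LT-HSC libraries held 76.9, 85.5, 87.1 and 93.4 CPM, against 123, 187, 235 and 150 CPM in young LT-HSC. Every aged library was below every young one, and the young libraries were the more scattered, with an SD of 48.6 CPM against 6.79 CPM in aged LT-HSC. The log2 change was -1.02 ± 0.12, a 2.03-fold lower level in aged LT-HSC (adjusted p = 8.4e-07), and it passed in all 33 alternative settings. The summed MPP markers also differed, at 135 to 148 CPM in aged LT-HSC and 168 to 858 CPM in young LT-HSC, with Il7r at 0 in aged and Dntt at 0 in young libraries. In young LT-HSC libraries 1 to 4 the sum was 858, 171, 186 and 168 CPM, beside 123, 187, 235 and 150 CPM of Cd34. The part of the MPP markers in the Cd34 result was not tested.

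Procr, the protein C receptor, held 89.8, 108, 89.0 and 69.9 CPM in aged LT-HSC, against 44.5, 36.8, 61.3 and 55.5 CPM in young LT-HSC. The ages did not overlap. The log2 change was 0.84 ± 0.21, 1.80-fold (adjusted p = 0.0068), and it passed in all 33 alternative settings. Since EPCR is also an endothelial protein, endothelial markers were read beside it. The 7 genes of that list summed to 92.7 to 126 CPM in aged LT-HSC and 42.8 to 58.8 CPM in young LT-HSC. None was at 0 in every library of either group. The list includes Emcn, which also marks stem cells, and its share of the sum in LT-HSC was not read apart. In young MPP, Emcn averaged 18.8 CPM where the sum had a median of 24.1 CPM. The part of the 7 genes in the Procr result was not tested.

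Cd9 and Ly6a were higher on average in aged LT-HSC but did not pass. Cd9 held 83.0, 91.9, 71.3 and 82.4 CPM in aged LT-HSC and 56.3, 52.5, 65.9 and 60.3 CPM in young LT-HSC, that is, 0.48 ± 0.21 on the log2 scale (adjusted p = 0.12). Ly6a, the transcript of the Sca1 gate, held 109, 103, 74.1 and 73.7 CPM in aged LT-HSC and 68.0, 53.5, 59.7 and 52.3 CPM in young LT-HSC, or 0.63 ± 0.30 on the log2 scale (adjusted p = 0.15). Neither gene overlapped between ages. Both passed when the model was fitted to the LT-HSC libraries alone, Cd9 at 0.47 (adjusted p = 0.0051) and Ly6a at 0.61 (adjusted p = 0.0043). In the fit to all groups, leaving out aged MPP library 3 also let Ly6a pass (0.61, adjusted p = 0.043), and leaving out aged MPP library 4 let Cd9 pass (0.47, adjusted p = 0.028).

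**Figure D3:**
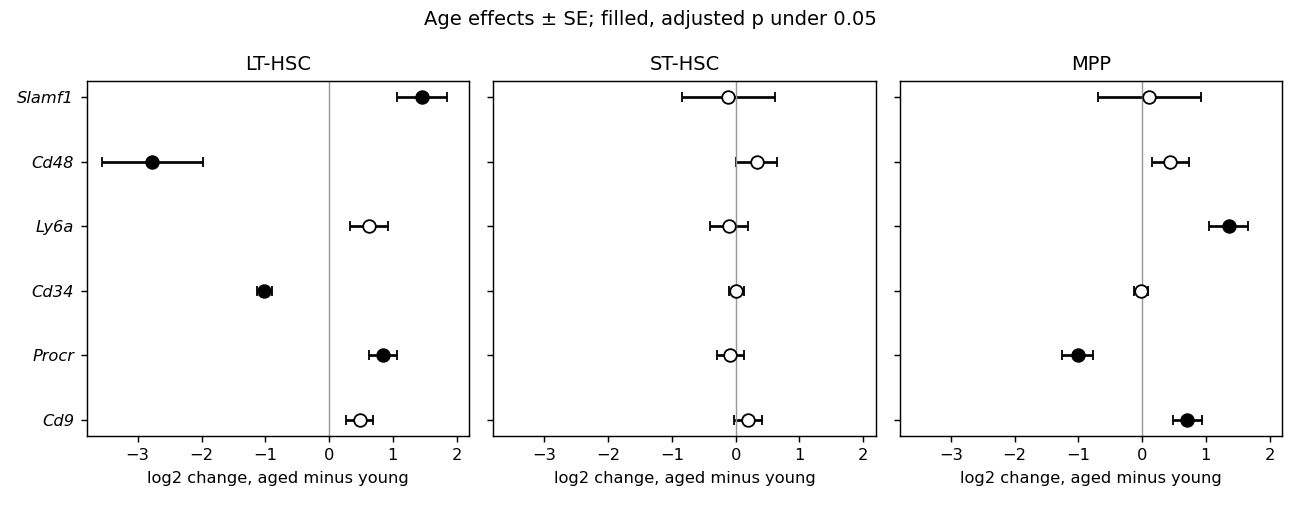
Log2 change, aged minus young, of each gene in LT-HSC, ST-HSC and MPP, with bars for ± SE and filled points where the adjusted p is under 0.05. In LT-HSC Slamf1 and Procr lie right of 0 and Cd48 and Cd34 left of it, in ST-HSC no point is filled, and in MPP Procr lies left of 0 and Ly6a and Cd9 right of it.

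In ST-HSC none of the 6 genes passed, where 5.79% of all tested genes did, and the ages overlapped for all 6 (10.9% of tested genes did not overlap). No gene reached an unadjusted p under 0.05 by edgeR, the smallest being 0.31 for Cd48, and DESeq2 and limma-voom also called 0 of them. Cd34 was nearly level, at 673 ± 22.4 CPM in aged ST-HSC and 667 ± 49.8 CPM in young ST-HSC (SD, n = 4 each), a log2 change equal to 0.01 ± 0.11 (adjusted p = 0.97). Procr held 43.3, 66.3, 42.2 and 29.6 CPM in aged ST-HSC and 47.9, 54.6, 50.1 and 38.6 CPM in young ST-HSC, or -0.08 ± 0.22 on the log2 scale (adjusted p = 0.89). The spread of the aged libraries for Procr contained that of the young ones.

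The remaining 4 genes did not pass in ST-HSC either. Cd48 averaged 14.4 ± 1.57 CPM in aged ST-HSC and 11.5 ± 3.09 CPM in young ST-HSC, which is a log2 change of 0.33 ± 0.32 (adjusted p = 0.61). Ly6a held 56.8, 74.9, 51.8 and 42.0 CPM in aged ST-HSC and 60.2, 73.5, 50.7 and 58.3 CPM in young ST-HSC, or -0.11 ± 0.30 on the log2 scale (adjusted p = 0.89). Cd9 held 35.1, 42.8, 29.8 and 51.4 CPM in aged ST-HSC and 40.0, 30.9, 36.1 and 32.6 CPM in young ST-HSC, or 0.19 ± 0.22 on the log2 scale (adjusted p = 0.69). Slamf1 had only 27 counts summed over the aged and 28 over the young ST-HSC libraries, and its estimate of -0.11 ± 0.73 (adjusted p = 0.96) is too wide to show whether it changed.

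In MPP, Ly6a and Cd9 rose with age and Procr fell, 3 of 6 genes where 9.79% of all tested genes passed. The direction of Procr was the opposite of that in LT-HSC. The ages did not overlap for 2 of the 6, Cd48 and Procr, against 16.5% of tested genes. Procr held 9.97, 9.07, 5.90 and 5.39 CPM in aged MPP and 11.1, 14.8, 17.4 and 17.8 CPM in young MPP. Its log2 change was -1.01 ± 0.24, 2.01-fold lower (adjusted p = 0.0087). The sum of the 8 LT-HSC markers, given above, was also lower in aged than in young MPP with none of them at 0 in either group, and its part in the Procr result was not tested.

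Ly6a scattered more in aged MPP than in any other group, with 63.0, 109, 29.9 and 107 CPM, against 23.3, 30.0, 24.1 and 43.3 CPM in young MPP. Aged library 3 lay within the young range and the other 3 aged libraries above it. The log2 change was 1.36 ± 0.31, 2.56-fold (adjusted p = 0.0071), and in a fit to the MPP libraries alone it did not pass (adjusted p = 0.12). Cd9 held 27.1, 27.8, 17.0 and 52.9 CPM in aged MPP and 21.6, 16.2, 18.3 and 20.1 CPM in young MPP. Aged library 4 was the highest, and without it the log2 change fell to 0.33 (adjusted p = 0.30), against 0.71 ± 0.22 with it (adjusted p = 0.046). The call for Cd9 was lost in 20 of 33 alternative settings.

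Markers of antibody-secreting cells differed between the same groups. The 6 B and plasma cell markers summed to 1843 to 9177 CPM in aged MPP and 37.9 to 344 CPM in young MPP, with none at 0 in every library. In aged MPP almost all of that was Jchain, and the library highest in it, number 4, was the highest for Cd9, next to highest for Ly6a and lowest for Procr. Without the highest Jchain library of each group concerned (aged MPP 4, young MPP 4 and aged ST-HSC 4), only Ly6a of the 6 genes was called. Cd9 changed by 0.37 (adjusted p = 0.27) and Procr by -0.78 (adjusted p = 0.065). The other aged MPP libraries stayed in. The part of these markers in the results was not tested.

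**Figure D4:**
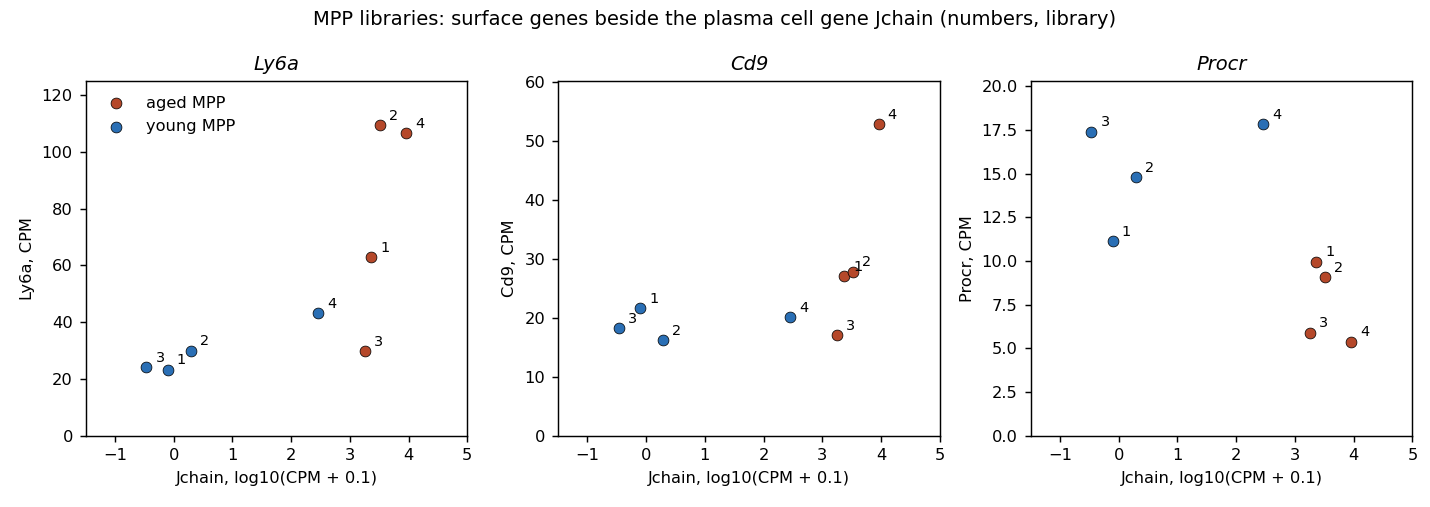
Ly6a, Cd9 and Procr in CPM against Jchain as log10(CPM + 0.1) in the 8 MPP libraries, numbered as in the text and coloured by age. Aged libraries lie at high Jchain, and aged library 4, at 9061 CPM of Jchain, holds 107 CPM of Ly6a, 52.9 CPM of Cd9 and 5.39 CPM of Procr.

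Cd48, Cd34 and Slamf1 did not pass in MPP. Cd48 averaged 90.2 ± 6.42 CPM in aged MPP and 66.4 ± 2.92 CPM in young MPP, a log2 change of 0.44 ± 0.29 (adjusted p = 0.38). All 4 aged libraries were above all 4 young ones, and in a fit to the MPP libraries alone the change of 0.45 passed (adjusted p = 0.0061). Cd34 averaged 817 ± 47.0 CPM in aged MPP and 829 ± 8.17 CPM in young MPP, a log2 change of -0.02 ± 0.11 (adjusted p = 0.94). Slamf1 had 24 counts summed over aged and 17 over young MPP libraries, with an estimate of 0.11 ± 0.81 (adjusted p = 0.96).

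Whether an age effect differed between populations was tested directly. The age effect in LT-HSC minus that in ST-HSC passed for Cd34, at -1.03 ± 0.16 (adjusted p = 0.0004), and for Cd48, at -3.10 ± 0.86 (adjusted p = 0.044), 2 of 6 genes where 4.05% of tested genes passed. Procr differed by 0.93 ± 0.30 (adjusted p = 0.084) and Slamf1 by 1.57 ± 0.84 (adjusted p = 0.34), neither past the threshold. The call for Cd48 was lost without young LT-HSC library 3, at -1.89 (adjusted p = 0.13), and in most other settings that left out a library. It was also lost by limma-voom, at -2.85 (adjusted p = 0.12), and without the highest Jchain library of the 3 groups named above, at -3.07 (adjusted p = 0.084). The difference for Procr passed by DESeq2, at 0.93 (adjusted p = 0.036), and by limma-voom, at 0.99 (adjusted p = 0.028). It also passed without aged ST-HSC library 2, at 1.14 (adjusted p = 0.023), and with aged ST-HSC libraries 2 and 3 left out along with number 1 of young LT-HSC, at 1.19 (adjusted p = 0.033).

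Against MPP the LT-HSC effect differed for 3 of 6 genes, where 9.93% of tested genes passed. Procr differed by 1.85 (adjusted p = 0.00052). This tests that its age effects differed between the 2 populations, not the sign of each. The fall in MPP by itself did not pass by limma-voom, at -1.03 (adjusted p = 0.065). Nor did it without the highest Jchain library of the 3 groups named above, at -0.78 (adjusted p = 0.065). Cd34 differed by -0.998 (adjusted p = 0.00023) and Cd48 by -3.21 (adjusted p = 0.018). Cd48 did not pass without young LT-HSC library 3, at -1.99 (adjusted p = 0.066), or by limma-voom, at -2.91 (adjusted p = 0.080). Without aged MPP library 3, Ly6a passed as well, at -1.02 (adjusted p = 0.042). The ST-HSC and MPP effects differed for 0 of 6 genes, where 0.465% of tested genes passed, and the smallest p was that of Ly6a, at -1.46 ± 0.43 (adjusted p = 0.18, unadjusted p = 0.0027). Without aged MPP library 3 it passed, at -1.72 (adjusted p = 0.0084). These 3 differences share libraries and are not independent of one another.

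Between populations, Cd34 separated LT-HSC from both ST-HSC and MPP. Aged LT-HSC held 10.3% and young LT-HSC 21.0% of the level in young MPP, the highest group. In aged LT-HSC against aged ST-HSC its log2 difference was -2.97 ± 0.13 (adjusted p = 1.2e-15), and in young LT-HSC against young ST-HSC it was -1.94 ± 0.12 (adjusted p = 7.4e-12). ST-HSC and MPP were close at both ages. ST-HSC minus MPP was -0.28 in aged (adjusted p = 0.067) and -0.31 in young cells (adjusted p = 0.054), although their libraries did not overlap at either age. Each passed without young LT-HSC library 3, at -0.28 in aged (adjusted p = 0.018) and -0.32 in young cells (adjusted p = 0.011). Each also passed by DESeq2 (adjusted p = 0.040 in aged and 0.032 in young cells) and in several other settings.

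Procr separated MPP from both stem cell populations. ST-HSC minus MPP was 2.57 ± 0.24 in aged cells (adjusted p = 2.3e-08) and 1.65 ± 0.23 in young cells (adjusted p = 1.9e-05). LT-HSC and ST-HSC differed in aged cells, by 0.98 ± 0.21 (adjusted p = 0.001), and in young cells the difference was 0.05 ± 0.21 (adjusted p = 0.93). Young LT-HSC, young ST-HSC and aged ST-HSC had means of 49.5, 47.8 and 45.3 CPM with overlapping libraries, and aged LT-HSC stood above them at 89.0 CPM.

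Cd9 was highest in LT-HSC. LT-HSC minus ST-HSC was 1.05 ± 0.22 in aged cells (adjusted p = 0.00056) and 0.75 ± 0.22 in young cells (adjusted p = 0.021). ST-HSC minus MPP was 0.35 in aged cells (adjusted p = 0.24) and 0.87 ± 0.23 in young cells (adjusted p = 0.0074). For Ly6a the contrasts with MPP passed in young cells and did not in aged cells. Young ST-HSC exceeded young MPP by 1.01 ± 0.31 (adjusted p = 0.024), and aged ST-HSC minus aged MPP was -0.46 ± 0.30 (adjusted p = 0.27). The difference between those 2 differences is the one tested above for the ST-HSC and MPP age effects, and it did not pass. Without aged MPP library 3, aged ST-HSC minus aged MPP was -0.73 and passed for Ly6a (adjusted p = 0.019), and without aged MPP library 4 it was 0.73 and passed for Cd9 (adjusted p = 0.0024), as it did without the highest Jchain library of each of 3 groups (0.58, adjusted p = 0.015). In young cells the Cd9 difference between LT-HSC and ST-HSC was lost without young LT-HSC library 3 (0.71, adjusted p = 0.057), young ST-HSC library 2 (0.72, adjusted p = 0.060) or young ST-HSC library 4 (0.72, adjusted p = 0.061). That of Ly6a between ST-HSC and MPP was lost without young ST-HSC library 2 (0.89, adjusted p = 0.074), young MPP library 1 (0.89, adjusted p = 0.080) or young MPP library 3 (0.90, adjusted p = 0.075).

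Counted over these 4 genes, 3 passed between aged LT-HSC and aged ST-HSC (32.3% of tested genes), 1 between aged ST-HSC and aged MPP (29.9%) and 3 between aged LT-HSC and aged MPP (56.8%). In young cells 2 passed between LT-HSC and ST-HSC (12.5%), 3 between ST-HSC and MPP (20.6%) and 4 between LT-HSC and MPP (37.2%). In the last of these Cd34 was at -2.25, Procr at 1.70, Cd9 at 1.62 and Ly6a at 0.95 (adjusted p = 8.2e-14, 2.2e-06, 3.6e-06 and 0.019). The Ly6a call was lost without young LT-HSC library 1 (0.87, adjusted p = 0.052), young MPP library 1 (0.86, adjusted p = 0.058) or young MPP library 3 (0.87, adjusted p = 0.057), and with number 1 of young LT-HSC left out along with aged ST-HSC libraries 2 and 3 (0.85, adjusted p = 0.064).

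Compared per kilobase of exon, RNA of the 6 genes in aged LT-HSC was highest for Ly6a, at 89.7 CPM per kb. Next came Cd9 at 66.9, Procr at 55.8, Cd34 at 32.8, Slamf1 at 26.8 and Cd48 at 0.150. Kit, outside the 6, stood above them all, at 323 CPM per kb in aged and 276 CPM per kb in young LT-HSC. In young LT-HSC the order was Cd34 at 66.6 CPM per kb, Ly6a at 58.1, Cd9 at 47.8, Procr at 31.0, Slamf1 at 9.73 and Cd48 at 1.05. Cd34 thus stood first of the 6 in young and below Ly6a, Cd9 and Procr in aged LT-HSC by mean level. In aged MPP, Cd34 at 313 CPM per kb exceeded the other 5 genes, of which Ly6a at 76.9 and Cd48 at 75.9 came next.

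The genes whose log2 CPM ran most alike over the 24 libraries, among 9454 genes with a mean of at least 10 CPM, are given with Pearson's r and no p, since the points share their groups. For Slamf1 they were Ctnnal1 and Vwf (0.960 each), Xk (0.945) and Rint1 (0.943). For Cd34 they were Flt3 (0.988), Tespa1 (0.984), Syk (0.979) and Satb1 (0.974). For Cd48 they were H2afy (0.974), Padi2 (0.973), Anxa2 (0.970) and Itgal (0.968). For Procr they were Meis1 (0.966), Abcg2 and Gabbr1 (0.957 each) and Ccdc157 (0.955). For Cd9 they were Lima1 (0.958), Anxa5 (0.949), Anxa7 (0.934) and Serpinb6a (0.933). Ly6a had no close match, with Gata3 (0.787), Atp9a (0.779), Myo1e and Ell2 (0.775 each).

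The choice of these genes depended on the measure. By Spearman's rho, 3 of the 4 recurred among the top 4 for Cd48 and Cd9, 1 for Slamf1 and Ly6a and 0 for Cd34 and Procr. When each library was taken as its deviation from its group mean, 0 of the 4 recurred for any of the 6, although Cd9 still had r = 0.81 with Lima1 and 0.84 with Serpinb6a, and Cd34 had 0.12 with Flt3. Among the 6 themselves, Slamf1 and Cd34 had r = -0.96, Cd48 and Cd34 0.95 and Slamf1 and Cd48 -0.90 over 24 libraries. Within groups the same pairs had r = -0.13, 0.53 and -0.03.

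Relatives of the 6 genes were read from lists of their families and partners. Of all tested genes, 9.98% rose and 8.87% fell in aged LT-HSC, 3.58% rose and 2.21% fell in aged ST-HSC, and 5.53% rose and 4.27% fell in aged MPP. Of 7 tested SLAM family and adaptor genes, 1 rose and 1 fell in aged LT-HSC, with a median log2 change of -0.76 against 0.00 over all genes. Cd84, a self-binding SLAM receptor, rose to 126 ± 13.7 CPM in aged LT-HSC, against 85.5 ± 6.32 CPM in young LT-HSC (log2 0.56, adjusted p = 0.00078). Ly9, another self-binding member of the family, fell to 6.36 ± 1.80 CPM in aged LT-HSC, against 17.5 ± 5.11 CPM in young LT-HSC (log2 -1.45, adjusted p = 1.1e-05). In ST-HSC and in MPP 2 of the 7 rose and 0 fell. Cd244, the receptor for CD48, rose to 119 ± 12.87 CPM in aged ST-HSC, against 49.7 ± 5.65 CPM in young ST-HSC (log2 1.26, adjusted p = 0.0022). Slamf7, a receptor abundant on plasma cells, rose to 49.1 ± 19.7 CPM in aged MPP, against 2.33 ± 1.08 CPM in young MPP (log2 4.39, adjusted p = 6.3e-06), beside the Jchain levels given above.

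Of 8 tested Ly6 family genes beside Ly6a, 2 rose and 1 fell in aged LT-HSC, 2 rose in aged ST-HSC, and 2 rose and 1 fell in aged MPP. Ly6e, a lipid-anchored relative of Sca1, rose in LT-HSC to 440 ± 47.9 CPM in aged cells, against 288 ± 10.8 CPM in young cells (log2 0.61, adjusted p = 0.00035). It also rose in MPP, to 563 ± 124 CPM in aged cells, against 368 ± 20.1 CPM in young cells (log2 0.61, adjusted p = 0.00081). Plaur, the urokinase receptor, rose in LT-HSC to 56.6 ± 18.6 CPM in aged cells, against 25.8 ± 7.37 CPM in young cells (log2 1.14, adjusted p = 0.003). The list medians were 0.08 in LT-HSC, 0.90 in ST-HSC and 0.46 in MPP.

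Of 28 tested tetraspanins beside Cd9, 6 rose and 3 fell in aged LT-HSC, 2 rose in aged ST-HSC and 4 rose in aged MPP. Cd53, a tetraspanin of white blood cells, rose in LT-HSC to 54.3 ± 22.2 CPM in aged cells, against 10.5 ± 2.23 CPM in young cells (log2 2.38, adjusted p = 1.0e-06). Cd37, a tetraspanin best known from B cells, fell to 39.7 ± 7.50 CPM in aged LT-HSC, against 69.0 ± 10.3 CPM in young LT-HSC (log2 -0.80, adjusted p = 0.00012). Tspan2 rose in ST-HSC (log2 0.93, adjusted p = 0.00027) and in MPP (log2 0.71, adjusted p = 0.002). The list medians were 0.14 in LT-HSC, 0.05 in ST-HSC and 0.00 in MPP.

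Of 11 tested genes of the protein C pathway beside Procr, 4 rose and 0 fell in aged LT-HSC, with a median of 0.28. Thbd, thrombomodulin, which works with EPCR in activating protein C, rose to 46.5 ± 9.85 CPM in aged LT-HSC, against 12.8 ± 4.93 CPM in young LT-HSC (log2 1.87, adjusted p = 1.9e-05). Pros1, the cofactor protein S, rose to 33.9 ± 4.33 CPM in aged LT-HSC, against 16.1 ± 3.28 CPM in young LT-HSC (log2 1.08, adjusted p = 0.0086). S1pr1, a sphingosine phosphate receptor, rose to 61.4 ± 6.83 CPM in aged LT-HSC, against 29.6 ± 2.45 CPM in young LT-HSC (log2 1.05, adjusted p = 0.00058). In ST-HSC 2 rose and 0 fell, and in MPP 1 rose and 1 fell. Thbd passed in ST-HSC too, with 19.4 ± 4.19 CPM for aged cells and 7.64 ± 1.47 CPM for young cells (log2 1.34, adjusted p = 0.0044), but not with library 1 of young LT-HSC and both number 2 and number 3 of aged ST-HSC left out (adjusted p = 0.083).

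Of 8 tested sialomucins beside Cd34, 3 rose and 1 fell in aged LT-HSC, 2 rose and 1 fell in aged ST-HSC, and 1 rose and 2 fell in aged MPP. Spn (CD43) rose to 665 ± 45.1 CPM in aged LT-HSC, against 510 ± 18.7 CPM in young LT-HSC (log2 0.38, adjusted p = 0.00011), and by 0.36 in ST-HSC (adjusted p = 0.001). Selplg, the ligand of P-selectin, fell in aged LT-HSC (log2 -0.34, adjusted p = 0.0071) and rose in aged MPP (log2 0.42, adjusted p = 0.0019). Emcn, endomucin, which marks vessels and stem cells, fell in MPP to 5.74 ± 1.77 CPM in aged cells, against 18.8 ± 3.68 CPM in young cells (log2 -1.71, adjusted p = 3.5e-06). The list medians were 0.22 in LT-HSC, 0.18 in ST-HSC and 0.15 in MPP.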

How the data were processed

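RNA of sorted cells was copied with not-so-random primers and a Klenow second strand and made into libraries with a Nextera XT kit, per the labels' protocols, a chemistry without strand marking or molecular identifiers. The processing tools were Trim Galore, HISAT2 and featureCounts with build mm10, per the submitters' processing notes. Of tool versions, gene annotation and strand mode nothing is given in the sources used here. The authors deposited raw counts per gene symbol in one table.

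The 14205 genes that passed filterByExpr, at least 99.9% of every library's counts, entered an edgeR 4.0.16 quasi-likelihood model (R 4.3.3, TMM factors, robust dispersion) of all 24 libraries with 1 mean per group and 18 residual degrees of freedom. P-values were adjusted over those genes by Benjamini-Hochberg, with a threshold of 0.05. SEs are the log2 change over the square root of F and are approximate. The scripts were tested on simulated data. Alternatives included DESeq2 1.42.0 and limma-voom (limma 3.58.1). A count of 0 allows up to 3 counts in a library, which covers counting error only, since PCR copies are not independent molecules. Likeness used log2 CPM with a prior count of 2. Exon lengths are unions of GENCODE M21 basic exons.

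The 6 genes, the lists and the naming rule were chosen with earlier results of these data known. The rule takes the 6 genes and Kit, the 4 genes most like each, and up to 3 genes of smallest p per list in LT-HSC and up to 2 in the other populations, passing over predicted genes. Trac, Ly6g and Epb42 of the marker lists were not analysed here.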

Additional observations from a re-analysis of the deposited data

Results flagged for a closer look

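Of 36 sets of 4 library values, 6 genes in 6 groups, 1 had a library standing apart. Aged MPP library 1 held 887 CPM of Cd34, against 784 to 801 CPM in the other 3, and its gap to the nearest of them was 0.838 of the whole range, more than the 95% limit of the Dixon test. Chance marks about 1 set in 20.

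Age effects that differed between populations by the test of the difference itself were those of Cd48 and Cd34 in LT-HSC against ST-HSC, at -3.10 and -1.03 on the log2 scale, and those of Cd48, Cd34 and Procr in LT-HSC against MPP, at -3.21, -0.998 and 1.85. The Cd48 values rest on 6 counts in aged and 50 counts in young LT-HSC.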

How the results depend on the processing

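With 4 libraries a group and a Cd48 level of 6 counts in aged LT-HSC, single libraries can move a call. In LT-HSC, Cd34 and Procr passed in all 33 settings tried. The causes of the changes below were not tested. Values are log2 changes, aged minus young, with adjusted p where the call changed.

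In LT-HSC, DESeq2 gave Slamf1 1.47 (0.087) and limma-voom gave Cd48 -2.47 (0.093) and Cd9 0.48 (0.045). Fitting only the groups compared gave Ly6a 0.61 (0.0043) and Cd9 0.47 (0.0051). Leaving out aged MPP 4, young MPP 4 and aged ST-HSC 4, each the highest in Jchain of its own group, gave Cd9 0.47 (0.021). That choice was made after seeing the data. Aged MPP libraries 1 to 3, at 1794 to 3289 CPM of Jchain, stayed in. Leaving out 1 library at a time gave -3.87 to -1.54 for Cd48, 0.51 to 0.71 for Ly6a and 0.41 to 0.53 for Cd9.

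In ST-HSC no gene was called in any setting, and signs turned. With library 1 of young LT-HSC and both number 2 and number 3 of aged ST-HSC dropped for granulocyte or Mpo RNA, Slamf1 was 0.23. Aged MPP library 4 and young ST-HSC library 4, with 288 and 254 CPM of granulocyte markers, were kept in that fit. Without the 3 Jchain libraries named above, Ly6a was 0.024 and Procr 0.089. With 1 library left out, Slamf1 ran from -1.36 to 0.46, Ly6a from -0.26 to 0.026, Cd34 from -0.015 to 0.080 and Procr from -0.31 to 0.092.

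In MPP, limma-voom gave Cd48 0.44 (0.0086), Procr -1.03 (0.065) and Cd9 0.58 (0.15), and the groups alone gave Cd48 0.45 (0.0061), Ly6a 1.36 (0.12) and Cd9 0.71 (0.17). Cd9 was 0.71 with no count filter (0.064) and 0.70 without the 3 libraries left out for granulocyte or Mpo RNA (0.058). Without the 3 Jchain libraries named above only Ly6a was called, and Slamf1 was -0.49, Cd34 0.0052, Procr -0.78 (0.065) and Cd9 0.37 (0.27). With 1 library left out, Slamf1 ran from -0.31 to 1.20, Cd34 from -0.061 to 0.0035 and Cd9 from 0.33 to 0.92.

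Of the LT-HSC minus ST-HSC age effects, Cd34 alone of the 6 passed with no count filter, where 479 of 19590 tested genes did. The same held with only the groups compared (516 of 13773 genes). It also held without the 3 Jchain libraries named above (498 of 14306) and with a replicate block (582 of 14205). In aged ST-HSC minus aged MPP, where 29.9% of tested genes passed in the fit reported, Procr passed in every setting. Cd34 joined it by DESeq2, limma-voom, the groups alone and a replicate block within age. Cd9 joined it without the Jchain libraries. The age effect in ST-HSC minus that in MPP for Slamf1 was 0.13 without the 3 libraries left out for granulocyte or Mpo RNA, and that in LT-HSC minus MPP for Cd9 was 0.10 without the Jchain libraries. With 1 library left out, 1 to 2 of 6 LT-HSC minus ST-HSC effects and 0 to 1 of 6 ST-HSC minus MPP effects passed, as did 1 to 2 of 4 genes in aged ST-HSC minus aged MPP and in young LT-HSC minus young ST-HSC. Differences that turned sign under some such settings were ST-HSC minus MPP effects of Slamf1 (-1.49 to 0.34) and Cd48 (-0.26 to 0.048), the LT-HSC minus MPP effect of Cd9 (-0.45 to 0.14), aged LT-HSC minus aged MPP for Ly6a (-0.058 to 0.43), and young LT-HSC minus young ST-HSC for Ly6a (-0.14 to 0.072) and Procr (-0.049 to 0.19). None of these differences passed the threshold in the fit reported. Replicate numbers were not taken as pairs, since the labels tie them to no mouse and not every pair exceeded a correlation of 0.1. Same-numbered libraries of one age had a median correlation of 0.072 (-0.13 to 0.25, 9 of 24 pairs over 0.1), against -0.026 for different numbers (7 of 72 over 0.1), and 14 of 24 libraries ran highest with their own number, a hint from the data, not from the design. With a replicate block within age, the LT-HSC minus ST-HSC effect was 0.98 for Procr (0.013) and -3.02 for Cd48 (0.085), and ST-HSC minus MPP for Cd34 was -0.28 in aged (0.046) and -0.32 in young cells (0.032).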

Other observations

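Other surface genes of stem and progenitor cells moved with age as well. By edgeR quasi-likelihood tests (adjusted p threshold 0.05, 4 libraries per group), 17 of 44 tested rose and 3 fell in aged LT-HSC. Of all tested genes 9.98% rose and 8.87% fell there. In aged ST-HSC 14 rose and 2 fell, against 3.58% and 2.21% of all tested genes. In aged MPP 10 rose and 4 fell, against 5.53% and 4.27%. The median log2 changes were 0.19, 0.14 and 0.13 against medians over all genes of 0.00, 0.01 and 0.00. This list was chosen with earlier results of these data known. In LT-HSC, Gpr183, an oxysterol receptor, rose to 183 ± 35.4 CPM in aged cells, against 16.7 ± 3.83 CPM in young cells (log2 3.45, adjusted p = 1.0e-13). Alcam (CD166), an adhesion protein, rose to 351 ± 37.8 CPM in aged LT-HSC, against 76.7 ± 14.2 CPM in young LT-HSC (log2 2.19, adjusted p = 3.9e-12). Itga6, an integrin chain, rose to 574 ± 32.5 CPM in aged LT-HSC, against 231 ± 11.6 CPM in young LT-HSC (log2 1.31, adjusted p = 5.2e-11), and by 0.79 in ST-HSC (adjusted p = 4.9e-06). Selp, P-selectin, rose to 43.8 ± 22.4 CPM in aged ST-HSC, against 5.79 ± 2.39 CPM in young ST-HSC (log2 2.89, adjusted p = 0.00021).

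Of 8 tested genes of the lineage markers used to exclude mature cells, 2 rose and 1 fell in aged LT-HSC. In aged ST-HSC 1 rose and in aged MPP 2 rose. Of all tested genes, 18.9% passed in LT-HSC, 5.79% in ST-HSC and 9.79% in MPP. The list medians were -1.16 in LT-HSC, 1.49 in ST-HSC and 0.75 in MPP. The MPP calls were those of Klrb1c (adjusted p = 0.037), lost in 11 of 33 settings, and Ncam1 (adjusted p = 0.043), lost in 17 of 33. Klrb1c (NK1.1) rose to 91.4 ± 20.6 CPM in aged LT-HSC, against 7.90 ± 2.35 CPM in young LT-HSC (log2 3.52, adjusted p = 0.00049). Ncam1, the other to rise there, held 28.7 ± 8.67 CPM in aged LT-HSC, against 7.60 ± 4.77 CPM in young LT-HSC (log2 1.92, adjusted p = 0.049). That call was lost in 19 of 33 settings. Klrb1c is itself 1 of the 7 T and NK cell markers analysed. Of these, Cd3e, Cd3g, Ncr1 and Cd8a were at 0 in every aged LT-HSC library, and Cd3e, Cd3g and Ncr1 in every young one. Whether the Klrb1c RNA came from T or NK cells was not tested.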
